A study of Homo sapiens with 6 samples.

Results

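The dual-specificity MAP kinase phosphatases examined here are DUSP1, DUSP2, DUSP4, DUSP5, DUSP6, DUSP7, DUSP8, DUSP9, DUSP10 and DUSP16, chosen by gene symbol as the catalytically active family that removes phosphate from MAP kinases. These 10 genes were taken from the 28395 genes of the expression table, and 9 of them passed the filter of a mean signal of at least 10 that left 14215 genes to test. RNA was sequenced from HCC827 cells, an established human lung adenocarcinoma line whose EGFR carries an activating mutation, in 3 libraries of cells given the vehicle DMSO and 3 libraries of cells given 1 μM erlotinib, an inhibitor of the EGFR kinase, for 24 h. The labels give no other difference between the groups, and a single cell line was used. The DMSO libraries held 20858083, 24641819 and 21172884 reads on genes and the erlotinib libraries, which the table numbers 4 to 6, held 21944007, 20760204 and 21678395. Values are given as signal, the reads of a gene divided by 1 size factor per library. The labels do not say that the libraries came from separate cultures. The paper says in general that experiments other than the animal studies were independently repeated at least 3 times, without naming these libraries. The p-values therefore measure the spread between these libraries, which may be technical.

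MAP kinases are switched on by phosphorylation of a threonine and a tyrosine in their activation loop, and a MAP kinase phosphatase removes both phosphates. Each enzyme docks on its own choice of ERK, JNK and p38, and many of the genes are themselves transcribed in response to the kinases their products switch off, which makes them a negative feedback. In cells driven by EGFR, DUSP4, DUSP5 and DUSP6 are known as transcripts induced by ERK, whereas DUSP1, DUSP8, DUSP10 and DUSP16 encode enzymes that act mainly on JNK and p38 and are known for roles in responses to stress. DUSP1 is also an immediate-early gene of growth factors. The group of DUSP1, DUSP8, DUSP10 and DUSP16 is called stress-induced below. That name is a label from general knowledge, and induction by stress was not tested here. The comparison of erlotinib with DMSO asks how each of these transcripts stood after 24 h of EGFR inhibition.

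The family did not move as one. Of the 9 phosphatases tested, 6 were lower with erlotinib (DUSP2, DUSP4, DUSP5, DUSP6, DUSP7 and DUSP9) and 2 were higher (DUSP1 and DUSP16) at an adjusted p-value under 0.05 by limma, DUSP10 was neither, and DUSP8 was listed at 0 throughout. Of all genes tested, 35.4% were lower and 35.3% were higher by the same rule, so a call by itself sets no gene apart in these cells. The 3 ERK-induced members were all lower, and the median of their log2 fold changes was -2.12. Of the 4 stress-induced members 3 were tested, 2 of which were higher and none lower, with a median of 0.94. The median over all genes tested was 0.02. The 2 ends of the family were DUSP6, with the 9th largest fall of the 14215 genes, and DUSP1, whose rise ranked 1682nd. These libraries are bulk RNA, in which fewer cells of a type and less RNA per cell cannot be told apart.

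**Figure D1:**
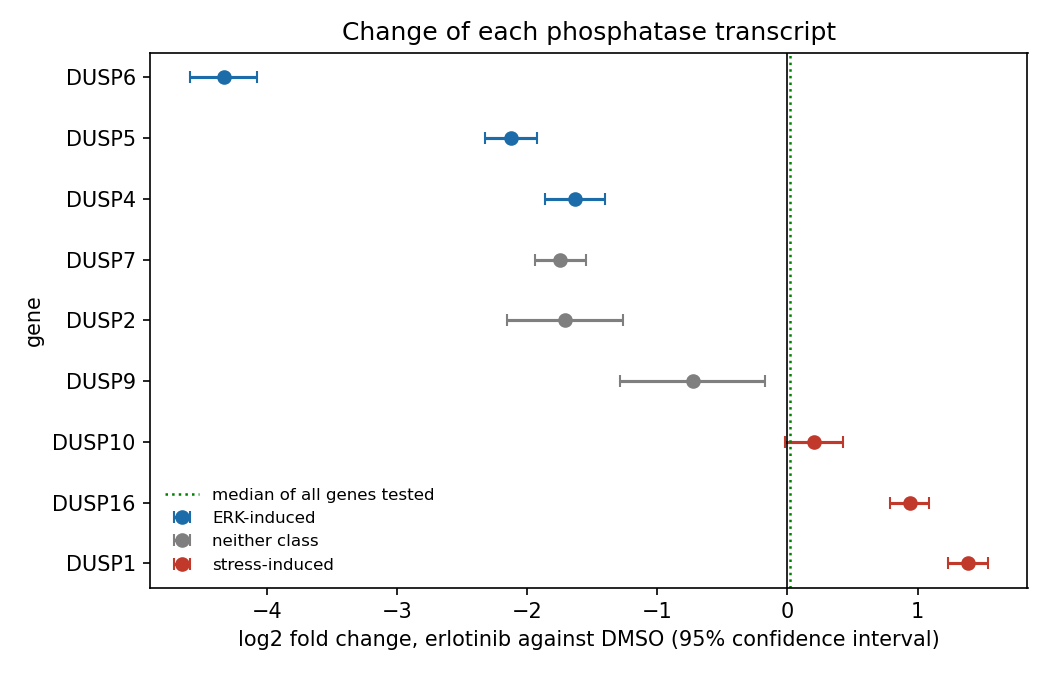
The log2 fold change of erlotinib against DMSO for the 9 tested phosphatases, with bars for the 95% confidence interval from limma (n = 3 libraries per condition) and colours for the class. The ERK-induced members lie between -4.33 and -1.64 and the stress-induced members between 0.20 and 1.38, and only the interval of DUSP10 takes in 0.

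The promoters of the members at both ends are shown because the direction of change differed between them. They are the 250 bases before the start of each gene, 5′ to 3′ on the strand of the gene, from RefSeq in GRCh38.p14, at chr12:89352502-89352751 for DUSP6 and chr5:172771196-172771445 for DUSP1, both on the minus strand. Capitals mark matches on either strand to the cyclic AMP response element TGACGTCA or its half-site TGACG, which lies inside the full element and reads CGTCA where it is on the other strand.
DUSP6 promoter: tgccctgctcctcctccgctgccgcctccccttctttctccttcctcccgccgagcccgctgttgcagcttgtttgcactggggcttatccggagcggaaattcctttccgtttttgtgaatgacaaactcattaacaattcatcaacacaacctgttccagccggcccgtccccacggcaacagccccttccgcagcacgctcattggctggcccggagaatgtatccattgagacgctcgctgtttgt
DUSP1 promoter: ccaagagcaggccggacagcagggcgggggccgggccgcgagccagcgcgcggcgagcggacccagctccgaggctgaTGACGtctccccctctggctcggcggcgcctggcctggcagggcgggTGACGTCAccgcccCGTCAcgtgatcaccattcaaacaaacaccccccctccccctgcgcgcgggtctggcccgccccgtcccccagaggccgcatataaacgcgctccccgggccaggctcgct
In DUSP1 the full element spans bases 125 to 118 before the start, and the 4 half-sites begin 172, 125, 122 and 111 bases before it, of which those at 125 and 122 lie in the full element. Such a full element is in 1.65% of the 35116 RefSeq promoter windows of this length and a half-site in 21.2%. The DUSP6 window holds neither. The ETS motif CCGGAAG (8.52% of windows), the AP-1 motif TGANTCA (6.57%) and the CArG box of serum response factor (1.16%), all searched on both strands, had no match in either window. The GC content is 57.2% in the DUSP6 window and 74.4% in that of DUSP1. Windows were found for 8 of the 10 members, as DUSP4 and DUSP5 had no entry in the set of windows used here. DUSP8 had 2 full elements and no match to the ETS, AP-1 or CArG motifs, and the windows of DUSP2, DUSP7, DUSP9, DUSP10 and DUSP16 had no match to any of the 5 motifs. A match is a description of letters, and no match says only that these letters are not in this window.

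DUSP6, a cytoplasmic phosphatase selective for ERK and a standard readout of ERK activity, had the largest fall of the family. Its signal was 1387, 1418 and 1368 in the DMSO libraries and 67.4, 63.4 and 73.9 in the erlotinib libraries. Every erlotinib library was far below every DMSO library, and the DMSO libraries had the smallest coefficient of variation of the 9 tested members, 1.82%. The mean signal fell from 1391 ± 25.3 to 68.2 ± 5.35 (SD, n = 3 libraries each), a 20.4-fold decrease that left 4.90% of the DMSO level, and the log2 fold change was -4.33 (SE 0.12, adjusted p = 5.1e-17, limma). The remaining level still rests on 73, 64 and 79 reads. The gene lies at 89347235 to 89352501 on chromosome 12 of GRCh38. The paper, which reported these libraries, counts DUSP6 and FOSL1 among targets of the transcriptional co-activators YAP and TAZ that erlotinib lowered. Which pathway accounts for the fall of DUSP6 was not tested.

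DUSP5, a nuclear phosphatase that dephosphorylates ERK and holds it in the nucleus, fell 4.37-fold. The signal was 1630, 1532 and 1818 with DMSO and 346, 408 and 386 with erlotinib. The log2 fold change was -2.12 (SE 0.10, adjusted p = 6.8e-14, limma), the 305th largest fall. DUSP4, a nuclear phosphatase of ERK and JNK, had a signal of 1052, 1004 and 1031 with DMSO and of 278, 367 and 353 with erlotinib. The library lowest for DUSP4, erlotinib library 4, was also the lowest of its group for DUSP5. The mean of DUSP4 fell 3.09-fold, with a log2 fold change of -1.64 (SE 0.11, adjusted p = 3.6e-11, limma). Within the ERK-induced class the 95% confidence interval of DUSP6, -4.59 to -4.08, lay wholly below those of DUSP5, -2.33 to -1.92, and DUSP4, -1.87 to -1.41.

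DUSP7 and DUSP9 are the cytoplasmic relatives of DUSP6 and also prefer ERK. DUSP7 fell about as much as the nuclear members of the ERK-induced class, with a signal of 1290, 1249 and 1381 in DMSO libraries against 407, 366 and 394 in erlotinib libraries. The mean fell 3.36-fold from 1307 ± 67.4 to 389 ± 20.8 (SD, n = 3 each), with an adjusted p of 8.0e-13 (limma). The fall of DUSP9, best known from placenta, was the smallest of the 6 and started from a low level. Its signal was 66.9, 59.4 and 74.9 with DMSO and 34.1, 40.6 and 45.9 with erlotinib, from 37 to 70 reads a library. The groups did not overlap, and the log2 fold change was -0.73 (SE 0.27, adjusted p = 0.020, limma). This call was lost without DMSO library 3 (-0.65, adjusted p = 0.064), without erlotinib library 4 (-0.62, adjusted p = 0.075) and when each library was scaled to its total count (-0.55, adjusted p = 0.070), all by limma.

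DUSP2, a nuclear phosphatase known mainly from activated lymphocytes, was also lower. The signal was 194, 152 and 227 in the DMSO libraries and 68.3, 46.5 and 58.0 in the erlotinib libraries. Its libraries spread more than those of the other members, with a coefficient of variation of 19.6% in DMSO and 18.9% with erlotinib, yet the groups did not overlap. The log2 fold change was -1.71 (SE 0.21, adjusted p = 4.3e-07, limma). With DUSP7 and DUSP9 it belongs to neither the ERK-induced nor the stress-induced class, and these 3 members were all lower, and their median was -1.71 on the log2 scale.

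**Figure D2:**
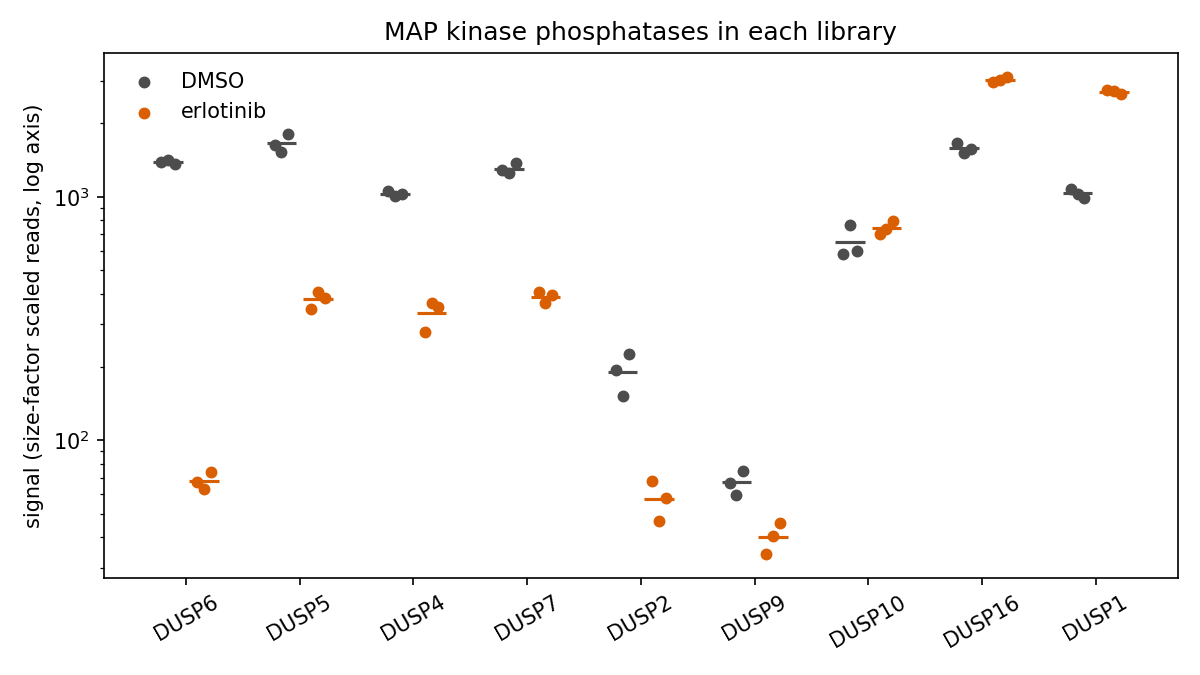
Signal of the 9 detected phosphatases in each library, on a log axis, with a point for each of the 3 DMSO (grey) and 3 erlotinib (orange) libraries and a line at the mean. The groups overlap for DUSP10 alone, and erlotinib libraries lie above the DMSO libraries for DUSP16 and DUSP1 alone. Levels of different genes cannot be compared on this axis because it is not corrected for transcript length.

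DUSP1, a nuclear phosphatase that acts on JNK and p38 and to a lesser degree on ERK, moved against the other inducible nuclear members. Its signal was 1080, 1030 and 989 in the DMSO libraries and 2740, 2718 and 2631 in the erlotinib libraries. The lowest erlotinib library thus stood well above the highest DMSO library, and neither group spread by more than a coefficient of variation of 4.41%. The mean rose 2.61-fold from 1033 ± 45.6 to 2697 ± 57.5 (SD, n = 3 each), with a log2 fold change of 1.38 (SE 0.074, 95% confidence interval 1.23 to 1.54, adjusted p = 7.9e-13, limma). The 4 inducible nuclear phosphatases therefore split, DUSP2, DUSP4 and DUSP5 being lower and DUSP1 higher. The paper's supplement places DUSP1 in YAP signatures that, as gene sets, the paper reported as lower with erlotinib.

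DUSP16, which acts on JNK and p38 and shuttles between nucleus and cytoplasm, rose 1.92-fold. The signal was 1659, 1511 and 1575 with DMSO and 2950, 3031 and 3109 with erlotinib. The groups were well apart, with a log2 fold change of 0.94 (SE 0.071, adjusted p = 2.1e-10, limma). DUSP10, another phosphatase of JNK and p38, had a signal of 583, 766 and 599 with DMSO and of 703, 735 and 794 with erlotinib. DMSO library 2 lay inside the erlotinib range, and the other DMSO libraries lay below it. The log2 fold change of DUSP10, 0.20 with a 95% confidence interval of -0.02 to 0.43, did not pass the test (adjusted p = 0.097, limma). Without DMSO library 2 it did pass (0.33, adjusted p = 0.0024, limma), as it did with scaling to the total count (0.38, adjusted p = 0.0050, limma), where the median of all genes was 0.19.

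DUSP8, known from brain and heart and directed at JNK and p38, had 0 reads in all 6 libraries, a count that allows up to 3 reads in each. Its transcript aligned to 2 alternate contigs of GRCh38 with an identity of at least 99.98%, and the study counted only reads that map to a single place. Of 75 genes of the lists described further on, DUSP14, HSPA1A and HSPA1B also had such copies, on 1, 4 and 4 contigs, and their highest count in any library was 1 read. Whether the copies set the 0 of DUSP8 was not tested. None of the other 9 phosphatases had a copy. DUSP1, DUSP6 and DUSP16 overlap antisense long non-coding RNAs that the table does not list, and since the strand counted is not given in the sources used here, reads of the antisense RNAs cannot be told apart from theirs.

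Divided by transcript length, the order of the family was rearranged. Lengths are those of the canonical transcript, the isoforms expressed were not determined, and reads over exon junctions can be lost. Levels of different genes therefore compare only roughly, and the SD does not cover this. With DMSO, DUSP5 was the most abundant at 670 ± 58.7 signal per kb (SD, n = 3), followed by DUSP1 at 513 ± 22.6, DUSP7 at 389 ± 20.05, DUSP6 at 384 ± 6.99, DUSP10 at 251 ± 39.1, DUSP16 at 237 ± 11.1, DUSP4 at 185 ± 4.30, DUSP2 at 113 ± 22.2 and DUSP9 at 27.6 ± 3.18. Neighbours in this order did not overlap between libraries except DUSP7 with DUSP6 and DUSP10 with DUSP16. With erlotinib the 3 detected stress-induced members came first, DUSP1 at 1340 ± 28.6, DUSP16 at 455 ± 11.9 and DUSP10 at 287 ± 17.8 signal per kb. They were followed by DUSP5 at 153 ± 12.6, DUSP7 at 116 ± 6.18, DUSP4 at 59.9 ± 8.66, DUSP2 at 34.2 ± 6.46, DUSP6 at 18.8 ± 1.47 and DUSP9 at 16.5 ± 2.41. In this order only DUSP6 and DUSP9 overlapped, and the mean of DUSP6 was 13.9 times that of DUSP9 with DMSO and 1.14 times with erlotinib.

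The make-up of the family shifted far more than its summed level. The 9 detected members together had 2767, 2711 and 2832 signal per kb in the DMSO libraries and 2460, 2491 and 2491 in the erlotinib libraries. This small decrease depends on the scaling: scaled to total counts, the sum was 2624 ± 93.3 with DMSO and 2660 ± 18.0 with erlotinib (SD, n = 3 each), and the groups overlapped. The ERK-induced members fell within this sum from 1239 ± 53.8 to 232 ± 21.0 signal per kb, while the stress-induced members went from 1001 ± 38.4 to 2082 ± 6.93 (SD, n = 3 each). The ratio of ERK-induced to stress-induced transcripts per kb was 1.22, 1.15 and 1.35 in DMSO libraries and 0.1004, 0.119 and 0.115 in erlotinib libraries. DUSP1 alone went from 18.5% ± 1.06 to 54.0% ± 1.44 of the sum. DUSP5 went from 24.2% ± 1.59 to 6.18% ± 0.47 and DUSP6 from 13.9% ± 0.55 to 0.758% ± 0.059. DUSP1 was 1.34 times as abundant per kb as DUSP6 with DMSO and 71.6 times with erlotinib. These sums and shares are descriptions without a test and depend on the transcript lengths used.

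**Figure D3:**
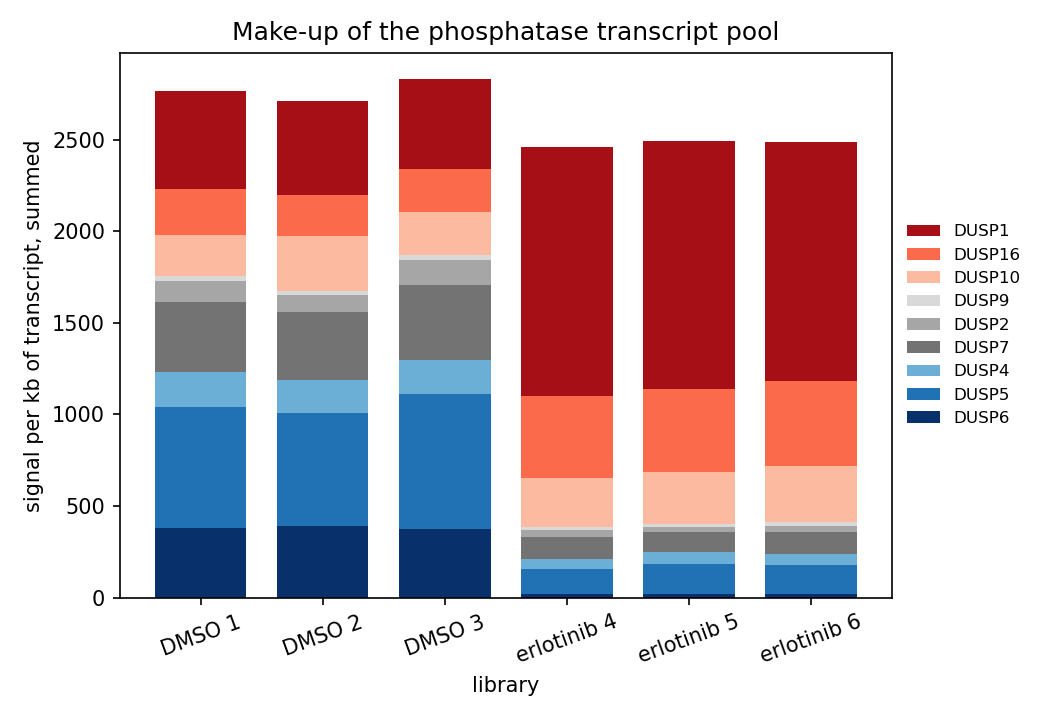
Signal per kb of transcript summed over the 9 detected phosphatases in each library, with 1 segment per gene (blue for ERK-induced, grey for neither class, red for stress-induced). The bars are 2711 to 2832 high with DMSO and 2460 to 2491 with erlotinib, and the red segments take 33.9 to 38.2% of a DMSO bar and 83.5 to 84.4% of an erlotinib bar.

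By enzyme class, the 3 cytoplasmic ERK-directed phosphatases (DUSP6, DUSP7 and DUSP9) were all lower, and their median was -1.75 on the log2 scale. Of the 3 phosphatases directed at JNK and p38 (DUSP8, DUSP10 and DUSP16) 2 were tested, 1 of which was higher and 1 neither. Counted by whether the libraries of the groups overlap, the family gave the same 6 lower and 2 higher members, where 36.9% of all genes tested had every erlotinib library below every DMSO library and 36.7% had every one above.

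The kinases that these enzymes switch off, and those upstream of them, showed no common direction. Their counts stand beside 35.4% lower and 35.3% higher among all genes tested. Of 10 MAP kinases 3 were lower and 4 higher, and the median of the list was 0.12 (log2 fold change). MAPK9 (-0.53) and MAPK8 (-0.36), which encode the widely expressed JNKs, were the lowest of those that passed, and MAPK10 (1.47) and MAPK11 (1.14), which encode a neuronal JNK and a p38 kinase, the highest. The call of MAPK8 was lost with scaling to the total count (-0.18, adjusted p = 0.15, limma). The signal of MAPK10 was 42.0, 29.7 and 23.5 with DMSO and 76.6, 97.02 and 88.9 with erlotinib, so it was a minor transcript in both groups. Of 7 MAP kinase kinases, 3 were lower and 3 higher, with a median of 0.02. MAP2K3 (-0.90), upstream of p38, and MAP2K1 (-0.90), upstream of ERK, had the largest falls, and MAP2K6 (1.21), upstream of p38, and MAP2K5 (1.01), upstream of ERK5, the largest rises.

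Phosphatases outside the family were spread on both sides of 0 as well, as were all genes tested, with 35.4% lower and 35.3% higher. Of 16 atypical dual-specificity phosphatases and related proteins, among them the catalytically inactive STYX and STYXL1, 10 were tested, 4 lower and 5 higher, and the median of the list was 0.27 on the log2 scale. DUSP12 (-0.77) and DUSP11 (-0.56), an RNA phosphatase, fell most, and DUSP19 (1.31) and DUSP22 (1.00) rose most. In the main fit, no tested gene of this list had an estimate as far from 0 as DUSP2, DUSP4, DUSP5, DUSP6 or DUSP7. With scaling to the total count, DUSP19 (1.48) was further from 0 than DUSP4 (-1.46). Of the tyrosine phosphatases that dock on MAP kinases, PTPRR was tested and was neither higher nor lower (-0.65, adjusted p = 0.17, limma), and PTPN5 and PTPN7 were at or near 0.

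Transcripts that are read as outputs of ERK and of stress are set beside both classes. The shares over all genes tested were 35.4% lower and 35.3% higher. Of 8 ERK output transcripts, 7 were lower and none higher, and the median of the list was -2.70 on the log2 scale. ETV5 (-4.38), an ETS transcription factor, and SPRY4 (-3.95), a feedback inhibitor of receptor signalling, fell most. Their falls and that of DUSP6 (-4.33) were of like size, and EPHA4 was neither (adjusted p = 0.34, limma). Of 12 stress response transcripts 10 were tested, 1 lower and 5 higher, with a median of 0.37. Beside 35.3% of all genes tested, the count of higher genes does not by itself set this list apart. GADD45G (2.67) and ATF3 (1.07) rose most, and TRIB3 (-1.31) was the one that fell. The signal of GADD45G was 11.3, 3.71 and 5.35 with DMSO and 39.7, 37.6 and 59.9 with erlotinib. Its DMSO mean of 6.80 is under the filter, so it was tested only because of its level with erlotinib, and a pseudocount of 10 lowered the estimate from 2.67 to 1.73. Without GADD45G, 4 of 9 tested stress response transcripts were higher and 1 lower, and their median was 0.15. ATF3 was at 549, 580 and 545 with DMSO and at 1083, 1234 and 1210 with erlotinib. GADD45A, GADD45B, ATF4 and SESN2 did not pass the test.

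**Figure D4:**
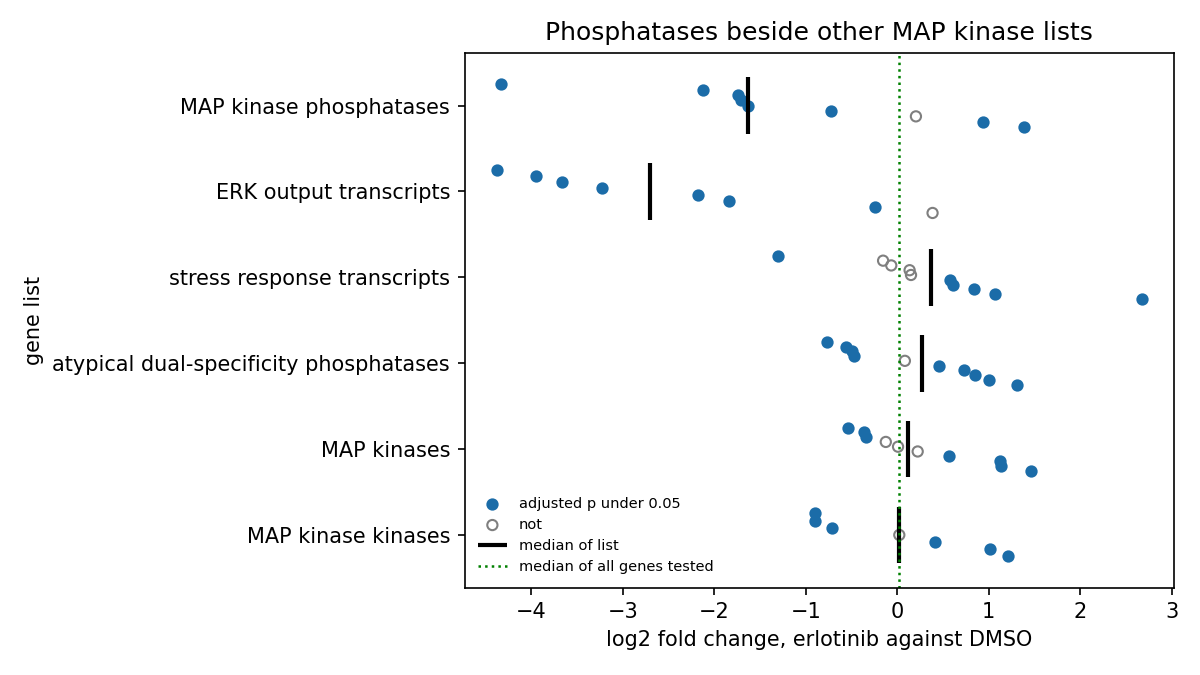
The log2 fold change of each tested gene in 6 lists, with filled points for an adjusted p-value under 0.05 (limma), a black line at the median of a list and a dotted line at the median of all genes tested, 0.02. The phosphatases reach from -4.33 to 1.38, while the MAP kinases and MAP kinase kinases lie between -0.90 and 1.47.

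The genes whose pattern over the 6 libraries was most like that of DUSP6 were CLSPN, FOSL1 and CDC6, by the Euclidean distance between log2 values centred on each gene's mean (0.20, 0.33 and 0.37). The log2 fold change was -4.34 for CLSPN, a DNA replication checkpoint adaptor, -4.15 for FOSL1, an AP-1 subunit, and -4.19 for CDC6, a replication licensing factor. The genes most like DUSP1 were NBR1, an autophagy receptor, GAREM1, an adaptor of EGFR signalling, and TSTD1, at distances of 0.066, 0.11 and 0.12. NBR1 rose by 1.37, GAREM1 by 1.43 and TSTD1 by 1.40. The distance mainly compares the size of the change between the groups, and these genes were picked for it.

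The cells had the markers of an epithelial line in both groups. EPCAM had a signal of at least 9268 and CDH1 of at least 27150 in every library, and neither passed the test, while KRT8 (-0.83), KRT18 (-1.25) and KRT19 (-0.39) were lower. KRT19 had the highest mean signal of the 5 in each group, without correction for length. In DMSO library 2 KRT8 was above it, at 43364 against 39530. Their summed signal over the 5 markers was 159671, 139791 and 147905 with DMSO and 109260, 109542 and 109317 with erlotinib. Of 6 fibroblast markers 5 had a mean signal under 10, and the most abundant, COL1A1, gave most of a sum of 73.7, 75.2 and 109 with DMSO and 260, 223 and 215 with erlotinib. COL1A1 was higher with erlotinib (1.47, adjusted p = 6.8e-07, limma). Of 5 leukocyte markers, which bear on DUSP2, 4 had a mean under 10 and PTPRC and CD3E were at or near 0. CD68, the most abundant, a lysosomal protein, had a signal of 2770, 2789 and 3136 with DMSO and of 3207, 3526 and 3449 with erlotinib and was higher (0.23, adjusted p = 0.0076, limma). The sum of the 5 was 2787, 2794 and 3170 with DMSO and 3241, 3536 and 3467 with erlotinib. Without CD68 it was 17.0, 5.57 and 34.2 with DMSO and 34.1, 9.90 and 17.8 with erlotinib. Of 4 endothelial markers 2 had a mean under 10, and the sum was 34.0, 15.8 and 20.3 with DMSO and 58.1, 46.5 and 45.9 with erlotinib, and the most abundant was PECAM1 in the DMSO libraries and VWF in the erlotinib libraries. VWF was higher (2.74, adjusted p = 0.00066, limma), but its DMSO mean of 3.94 is under the filter, so it was tested only because of its level with erlotinib. The part of these transcripts in the phosphatase values was not tested.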

How the data were processed

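HCC827 cells treated with DMSO or erlotinib were profiled by RNA-seq of poly(A) RNA, 3 libraries per condition. According to the paper's methods and the submitters' processing notes, the authors mapped reads to GRCh38 with Bowtie2 2.3.4, assigned those mapped to a single place to genes with featureCounts 1.6.3 and used DESeq2 1.18.1. Bowtie2 does not split reads at introns, so reads over exon junctions can be lost. In the table the authors deposited, signal is the reads of a gene divided by a size factor between 0.882 and 1.08: 100% came out whole within 0.1 read after division by each library's step. Of genes with 1 to 20 reads, 58.1 to 61.1% had an even count. Whether both mates of a pair were counted was not tested, and the read counts given may exceed the number of fragments. Chi-square per degree of freedom was 4.13 to 6.08 between erlotinib libraries and 7.96 to 24.3 between DMSO libraries, above sampling noise. The values of 24.3 and 15.2 were those of DMSO library 2 with DMSO libraries 1 and 3.

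Since the table holds signal, limma 3.58.1 with a mean-variance trend was fitted to log2(signal + 1) of all 6 libraries, for genes with a mean of at least 10. Tests were two-sided with Benjamini-Hochberg adjustment over all genes tested and a threshold of 0.05. Fold changes on this scale understate those of low genes; folds in times are ratios of mean signals. On simulated data for this comparison (14195 genes), 180 of 199 changed genes were recovered and 5 of 185 calls were false. Lengths are canonical transcripts of GENCODE 44, and copies on 261 alternate contigs were sought with minimap2 2.31-r1302 (at least 90% aligned, 97% identity). Promoters are from RefSeq. No protein sequences were used.

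The members, classes, lists and tests were chosen with earlier results of these data known. Named are all members, the 2 largest rises and 2 largest falls past the threshold of each list with genes that decide a sentence, and the 3 genes nearest to DUSP6 and to DUSP1. One gene that this rule would allow is not reported here. Alternatives were edgeR 4.0.16, DESeq2 1.42.0 and limma-voom on recovered reads, total-count and TMM scaling, no filter, at least 10 reads in every library, pseudocounts of 0.1 and 10, each library left out in turn, DUSP1 left out of its class and, chosen after seeing the data, GADD45G left out of the stress response transcripts. R 4.3.3, Python 3.11.15 and matplotlib 3.10.9 were used.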

Additional observations from a re-analysis of the deposited data

How the results depend on the processing

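Over 15 alternative settings, 5 to 6 phosphatases were lower and 2 to 3 higher, and no phosphatase changed direction in any of them. Of 135 single values of the 9 tested phosphatases, 130 kept their direction and their side of the threshold, and the other 5 concern DUSP9 and DUSP10, given above. DUSP6 ranged from -4.39 to -4.15 and DUSP1 from 1.35 to 1.56. The count of all genes lower ranged from 3955 to 5080 and that of genes higher from 4354 to 6156. With libraries scaled to their total count, the median of all genes moved from 0.02 to 0.19, that of the ERK-induced members to -1.95 and that of the stress-induced members to 1.12. Relative to the median of all genes, the ERK-induced median was -2.14 under both scalings and the stress-induced median 0.92 under both. Leaving DUSP1 out of the stress-induced members lowered their median to 0.57 and the difference between the class medians to 2.70. DUSP10 and DUSP16 are then the only tested members of the class. Leaving GADD45G out of the stress response transcripts, an alternative chosen after seeing the data, lowered their median from 0.37 to 0.15. GADD45G could not be tested with at least 10 reads in every library. No paired analysis was possible because the erlotinib columns carry no replicate number of the labels. DUSP9, at 37 to 70 reads a library, had the largest standard error of the 9 tested phosphatases (0.27).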
